A study of Mus musculus with 2 samples.

Results

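The genes described here are 10 genes of prostaglandin and leukotriene synthesis, signalling and breakdown: Pla2g4a, Ptgs1, Ptgs2, Ptges, Ptger2, Ptger4, Hpgd, Alox5, Alox5ap and Ltc4s. They were chosen by name from the pathway and matched by symbol to the gene tables, where each had 1 entry among 32285 genes. Their unique molecular identifiers (UMIs, counts of captured RNA molecules) were followed across cell classes and across 2 single-cell RNA-seq libraries of mouse tumours. CMT167R cells, labelled wild type and derived from a mouse lung carcinoma line as a form resistant to anti-PD1, had been injected subcutaneously into C57BL/6 mice. The control library came from tumours of mice given solvent, and the PKCi library from mice given a protein kinase C inhibitor by daily intraperitoneal injection at 3 mg/kg. Tumours were taken when the controls reached 400 mm3, and the labels report that the treated tumours differed in volume at that time. The compound behind the name PKCi and the number of mice per library were not given in the sources used here. The series concerns PKC signalling coordinated by XIAP and resistance to immunotherapy. With 1 library per treatment, no difference between the libraries has a replicate check and no p-value is given. All intervals below are 95% intervals that cover counting error only.

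Arachidonic acid is released from membrane phospholipids by cytosolic phospholipase A2, encoded by Pla2g4a. The cyclooxygenases COX-1 (Ptgs1) and COX-2 (Ptgs2) convert it to prostaglandin H2, and the microsomal enzyme encoded by Ptges turns this into prostaglandin E2 (PGE2). PGE2 signals through the cyclic AMP-coupled receptors EP2 (Ptger2) and EP4 (Ptger4), is known to dampen T, NK and dendritic cell responses in tumours, and is broken down by 15-hydroxyprostaglandin dehydrogenase (Hpgd). In the other branch, 5-lipoxygenase (Alox5) and its partner FLAP (Alox5ap) make leukotriene A4, and Ltc4s conjugates it to glutathione to give the cysteinyl leukotriene C4.

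The promoters of Ptgs1, Ptgs2 and Ptges are shown because the COX genes act at the same step and Ptges at the next, because Ptgs2 was split between the main population and monocyte-like cells while Ptgs1 and Ptges were mostly in the main population, and because the ratios of the COX genes between the libraries differed within the same class. RefSeq (GRCm38.p6) promoter windows, 250 bases before to 50 after the annotated start, were found for 9 of the 10 genes. Each is written 5′ to 3′ on the strand of its gene, and capitals mark matches to any of 6 short motifs: the TATA box TATAAA, the short cyclic AMP response site TGACG, the AP-1 motif TGANTCA, the hypoxia core ACGTG, the GC box GGGCGG and the C/EBP palindrome TTGCGCAA, each searched on both strands.
Ptgs2, chr1:150099781-150100080, plus strand: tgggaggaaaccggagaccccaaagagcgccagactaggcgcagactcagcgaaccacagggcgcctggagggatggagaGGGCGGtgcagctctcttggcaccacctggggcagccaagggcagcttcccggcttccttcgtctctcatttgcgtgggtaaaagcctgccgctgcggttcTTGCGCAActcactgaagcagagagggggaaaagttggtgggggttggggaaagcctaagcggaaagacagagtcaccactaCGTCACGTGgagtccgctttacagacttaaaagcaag
Ptges, chr2:30903248-30903547, minus strand: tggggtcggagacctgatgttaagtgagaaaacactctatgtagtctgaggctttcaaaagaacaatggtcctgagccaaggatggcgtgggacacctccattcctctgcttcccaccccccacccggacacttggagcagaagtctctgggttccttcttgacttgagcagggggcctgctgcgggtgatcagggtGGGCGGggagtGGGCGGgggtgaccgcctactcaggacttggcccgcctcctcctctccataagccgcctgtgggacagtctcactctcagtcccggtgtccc
Ptgs1, chr2:36230176-36230475, plus strand: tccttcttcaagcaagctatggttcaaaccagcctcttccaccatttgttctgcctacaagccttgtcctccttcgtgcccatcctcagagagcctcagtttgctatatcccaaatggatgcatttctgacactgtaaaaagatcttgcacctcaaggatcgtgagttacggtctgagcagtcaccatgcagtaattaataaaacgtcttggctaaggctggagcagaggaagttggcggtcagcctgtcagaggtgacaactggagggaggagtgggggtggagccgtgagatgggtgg
The Ptgs2 window held a GC box at bases 81 to 86 and the C/EBP palindrome at bases 182 to 189. It also held a cyclic AMP site, on the opposite strand at bases 264 to 268, overlapping a hypoxia core that reads on both strands from base 267 to base 272. The Ptges window held 2 GC boxes, at bases 198 to 203 and 209 to 214, and the Ptgs1 window held none of the 6 motifs. Among 27025 promoter windows of the same length, 35.9% held a GC box, 21.0% the cyclic AMP site, 19.7% the hypoxia core, 14.2% the TATA box, 7.93% the AP-1 motif and 0.185% (50 windows) the C/EBP palindrome. A match is a description of letters and not evidence of binding.

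The libraries held 222641855 UMIs in 6688 barcodes (control) and 229219749 UMIs in 7457 barcodes (PKCi), and 6269 and 7078 cells were kept after filtering. Cells were clustered without the pathway genes, and clusters were named from marker lists. The largest class had 4891 control and 5336 PKCi cells and is referred to as the main population. It carried Krt8 at 380 and 482 CPM (the UMIs of a gene per 1000000 UMIs of the summed cells) and low leukocyte markers, but Epcam at 0.00493 and 0.00485 CPM and Krt19 at 0.00493 and 0 CPM. It is therefore named by its size and its Krt8 and not as an epithelial class. The leukocyte classes were monocyte-like (576 and 483 cells), macrophage-like (179 and 548), neutrophil-like (267 and 167), T-like (65 and 118), NK-like (36 and 51) and dendritic-like cells (9 and 25, with 3 of 7 dendritic markers in the control cells and led by Ccr7). Fibroblast-like (24 and 26) and endothelial-like cells (11 and 20) were few, and 211 and 304 cells stayed unnamed. Of the barcodes, 20 occurred in both libraries, and leaving these out changed no call. Ratios between libraries were formed in the 4 classes that had 100 or more cells per library. There, a gene was called higher or lower in the PKCi library when it had at least 20 UMIs over both libraries, a ratio of at least 1.5 or at most 0.667, and an interval apart from 1.

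The RNA of the 10 genes fell into 2 groups by the cells that held it. The main population held 97.5% of all Ptges UMIs in the control library and 96.9% in the PKCi library, 90.1% and 80.6% of Ptgs1, and 74.5% and 70.4% of Pla2g4a. It held 93.6% and 92.2% of the UMIs of all genes, so that of these 3 genes only Ptges had a larger share there than the library as a whole. Ptgs2 was split, with 41.8% and 36.7% in the main population and 49.4% and 32.6% in monocyte-like cells. The leukotriene genes and the PGE2 receptor genes Ptger2 and Ptger4 were mostly in myeloid cells. Macrophage-like cells held 69.1% and 66.4% of Ltc4s UMIs, and monocyte-like cells held 61.5% and 33.1% of Ptger2 UMIs. In such shares, more cells of a class and more RNA per cell cannot be told apart, and macrophage-like cells were 2.86% of kept control cells and 7.74% of kept PKCi cells.

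**Figure D1:**
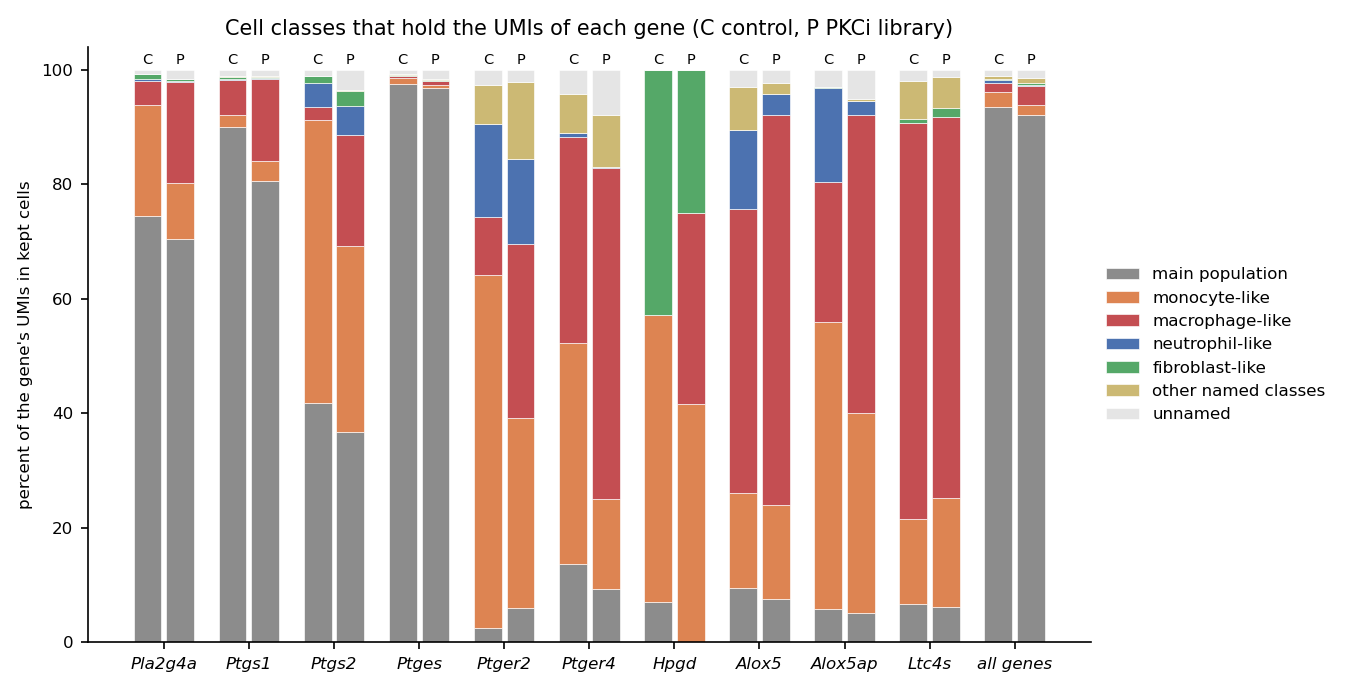
Stacked bars give the percent of each gene's UMIs held by each cell class, with the control (C) and PKCi (P) libraries side by side and all genes together at the right. Ptges is almost wholly in the main population (97.5% and 96.9%), whereas Alox5ap and Ltc4s are mostly in monocyte-like and macrophage-like cells.

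**Figure D2:**
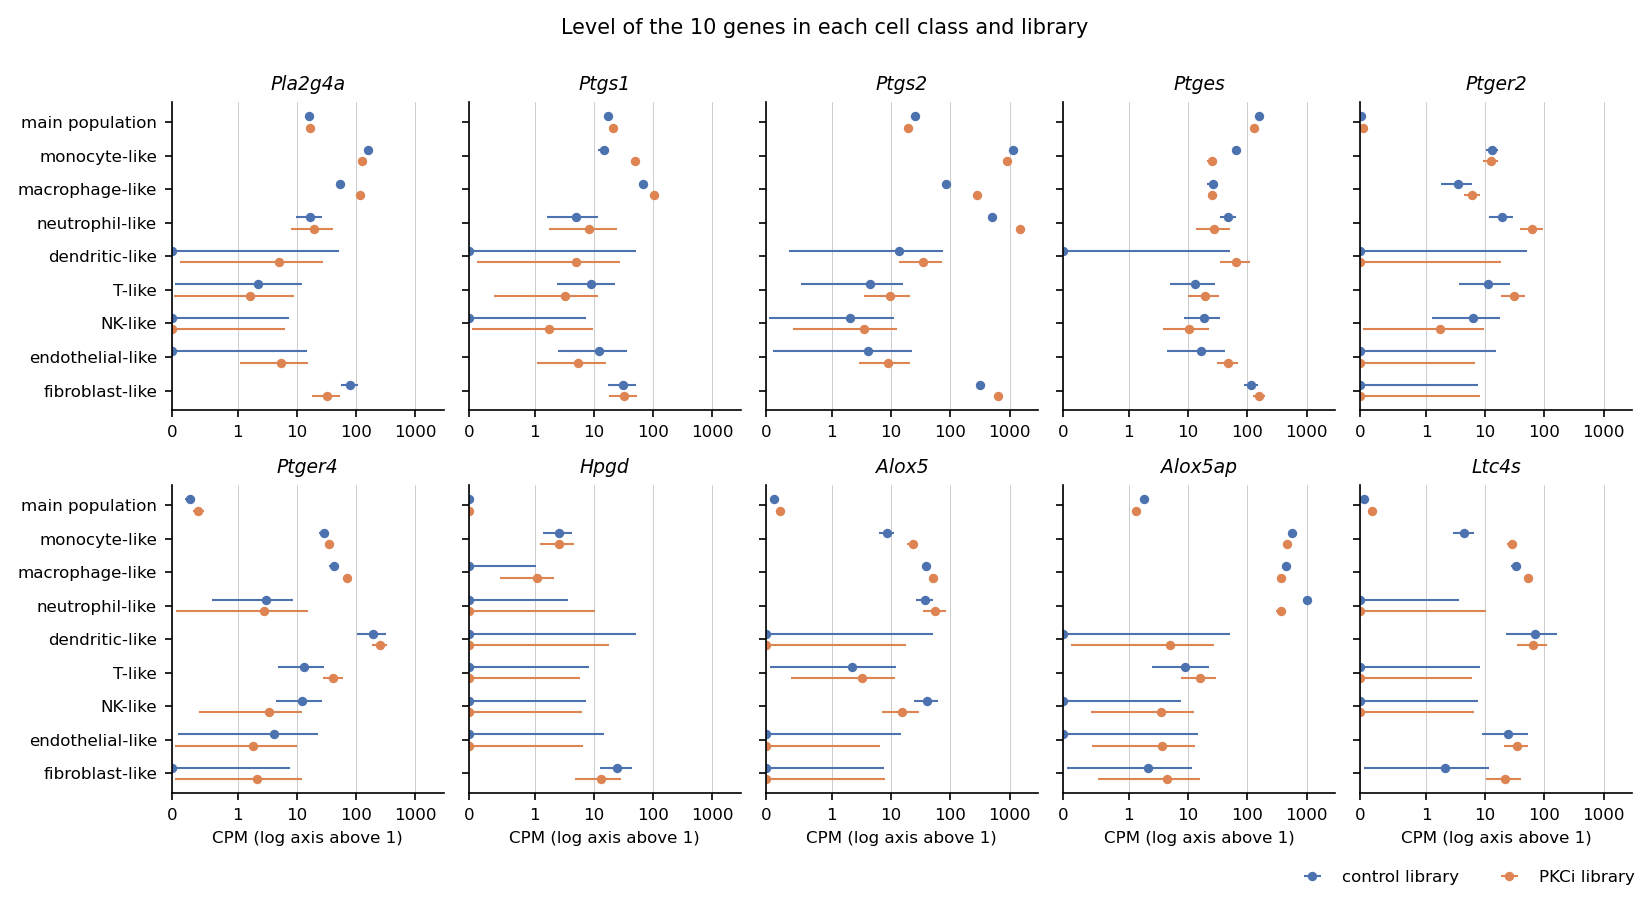
Points give the CPM of each gene in each cell class, blue for the control and orange for the PKCi library, with exact Poisson 95% intervals as bars; the axis is linear below 1 CPM and logarithmic above. Ptgs2 spans from 2.03 CPM in control NK-like cells to 1507 CPM in PKCi neutrophil-like cells.

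Pla2g4a (ENSMUSG00000056220, chr1:149829618-149961290, minus strand; this and the gene positions below are from GENCODE M21 on GRCm38) encodes the phospholipase that frees arachidonic acid. Its level was highest in monocyte-like cells, at 158 CPM (148 to 169; 863 UMIs) in the control library and 125 CPM (115 to 137; 493 UMIs) in the PKCi library. Macrophage-like cells had 53.9 CPM (46.5 to 62.3; 186 UMIs) in the control and 119 CPM (111 to 127; 878 UMIs) in the PKCi library, so that in the latter the intervals of both classes overlapped. In macrophage-like cells Pla2g4a was thus 2.20 times as high in the PKCi library (1.88 to 2.59), which was called higher, and in monocyte-like cells 0.793 times (0.708 to 0.887), short of the fold. At a Leiden resolution of 0.5, where both classes were 1, its log2 ratio was 0.04 in place of 1.14 and the call was lost. Fibroblast-like cells, too few for a call, had 78.9 CPM (38 UMIs) in the control and 32.6 CPM (15 UMIs) in the PKCi library, and without the cell of each library with the most Pla2g4a UMIs 47.6 and 29.6 CPM. The main population had 16.4 and 17.0 CPM, a ratio of 1.04 (0.991 to 1.09). Lymphoid cells had almost none, with no UMI in NK-like cells of either library, where a count of 0 allows up to 6.10 CPM in the control and 5.18 CPM in the PKCi library.

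Ptgs1 (ENSMUSG00000047250, chr2:36230426-36252272, plus strand) encodes COX-1, the cyclooxygenase usually described as constitutive. Its level was highest in macrophage-like cells, at 67.9 CPM (59.4 to 77.1; 234 UMIs) in the control and 105 CPM (97.7 to 113; 776 UMIs) in the PKCi library, with a ratio of 1.55 (1.33 to 1.80). Monocyte-like cells had 14.7 CPM (11.6 to 18.2; 80 UMIs) and 49.3 CPM (42.6 to 56.8; 194 UMIs), a ratio of 3.37 (2.58 to 4.42). Both were called higher in the PKCi library, the first close to the fold: in macrophage-like cells with no UMI of the monocyte genes Ly6c2, Chil3 or Plac8 the log2 ratio was 0.55 against 0.63 and the call was lost. The main population had 17.1 CPM (16.5 to 17.7; 3462 UMIs) and 21.3 CPM (20.6 to 21.9; 4379 UMIs), a ratio of 1.25 (1.19 to 1.30). Fibroblast-like cells had 15 UMIs in each library, and neutrophil-like cells only 5 and 3.

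Ptgs2 (ENSMUSG00000032487, chr1:150100031-150108227, plus strand) encodes COX-2, the inducible cyclooxygenase. In the control library monocyte-like cells were highest at 1128 CPM (1100 to 1156; 6152 UMIs), followed by neutrophil-like cells at 513 CPM (470 to 560; 517 UMIs), fibroblast-like cells at 318 CPM (269 to 372; 153 UMIs), macrophage-like cells at 84.4 CPM (75.0 to 94.7; 291 UMIs) and the main population at 25.7 CPM (24.96 to 26.4; 5201 UMIs). In the PKCi library neutrophil-like cells came first at 1507 CPM (1383 to 1640; 541 UMIs), then monocyte-like cells at 910.3 CPM (880.7 to 940.6; 3579 UMIs), fibroblast-like cells at 652 CPM (580 to 730; 300 UMIs) and macrophage-like cells at 288 CPM (276 to 301; 2131 UMIs), with the main population at 19.6 CPM (19.0 to 20.2; 4037 UMIs). The fibroblast-like place rests on few cells: 110 of its 153 control UMIs came from 1 cell and 66 of its 300 PKCi UMIs from another, and without the cell of each library with the most Ptgs2 UMIs it was 97.6 CPM (70.7 to 132) and 544 CPM (477 to 619), the first overlapping macrophage-like cells. The intervals of the other neighbours named here did not overlap. Dendritic-like cells had 13.8 CPM from 1 UMI and 34.6 CPM (13.9 to 71.2) from 7 UMIs, which overlapped the main population. T-like, NK-like and endothelial-like cells stayed below 10 CPM in both libraries.

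Between the libraries, Ptgs2 went in opposite directions in different classes. It was called higher in macrophage-like cells, at 3.41 times the control level (3.02 to 3.87), and in neutrophil-like cells, at 2.94 times (2.60 to 3.32). The main population (0.764; 0.733 to 0.796) and monocyte-like cells (0.807; 0.775 to 0.841) were lower with intervals apart from 1, but within the fold. The macrophage-like value depends on where the class ends: with classes set cell by cell from markers its log2 ratio was 0.12 in place of 1.77, and at a Leiden resolution of 0.5, where monocyte-like and macrophage-like cells formed 1 class, it was -0.52. Over both classes pooled, Ptgs2 was 724 CPM in the control and 504 CPM in the PKCi library.

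The share of cells with a Ptgs2 UMI was compared after each cell was thinned to 5000 UMIs. Among macrophage-like cells it was 15.5% (10.2 to 22.2; 155 cells) in the control and 30.6% (26.5 to 35.0; 477 cells) in the PKCi library, against 26.3% and 39.6% unthinned. The monocyte-like share was 59.8% (55.4 to 64.1) and 60.8% (55.6 to 65.95), with 68 control and 128 PKCi cells too shallow to enter. Thinned to 3000 UMIs, where 18 and 23 cells did not enter, it was 52.9% (48.6 to 57.1) and 48.0% (43.4 to 52.7), and unthinned 64.1% and 60.04%. The intervals overlapped at both depths. In fibroblast-like cells 6 of 21 control and 18 of 24 PKCi cells had a UMI. In the main population it was 9.29% and 8.37% (37.2% and 33.3% unthinned, at median depths of 38190 and 35402 UMIs).

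Ptges (ENSMUSG00000050737, chr2:30889471-30929863, minus strand) encodes the inducible PGE2 synthase. Its level in the control library was highest in the main population, at 158 CPM (157 to 160; 32132 UMIs), and next in fibroblast-like cells at 114 CPM (86.0 to 149; 55 UMIs). In the PKCi library the main population had 128 CPM (126 to 129; 26307 UMIs) and fibroblast-like cells 156 CPM (122 to 197; 72 UMIs), and these intervals overlapped. The main population's ratio of 0.806 (0.793 to 0.819) is within the fold. Monocyte-like cells had 64.0 CPM (57.4 to 71.0; 349 UMIs) in the control and 25.4 CPM (20.7 to 30.9; 100 UMIs) in the PKCi library, with a ratio of 0.398 (0.315 to 0.498) that was called lower. In macrophage-like cells it was 25.8 and 25.6 CPM, a ratio of 0.990 (0.766 to 1.29). Those cells also carried Krt8, the keratin of the main population, at 12.2% and 19.0% of its level there, beside 16.3% and 20.01% for Ptges. In monocyte-like cells the Krt8 share was 6.89% and 6.44% and the Ptges share 40.4% and 19.9%. The part of RNA from the main population in these Ptges values was not tested.

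The PGE2 receptor genes Ptger2 and Ptger4 were almost absent from the cells that held most Ptges. Ptger4 (ENSMUSG00000039942, chr15:5206661-5244187, minus strand), the EP4 receptor, had 0.271 and 0.398 CPM in the main population. Its highest levels were in dendritic-like cells, at 193 CPM (105.6 to 324; 14 UMIs) in the control and 252 CPM (187 to 331; 51 UMIs) in the PKCi library. Macrophage-like cells followed at 42.1 CPM (35.5 to 49.5) and 69.4 CPM (63.5 to 75.6), a ratio of 1.65 (1.37 to 1.997) called higher, and monocyte-like cells at 28.4 and 35.6 CPM, a ratio of 1.25 (0.990 to 1.59). T-like cells had 13.3 CPM from 6 UMIs and 41.6 CPM from 26 UMIs.

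Ptger2 (ENSMUSG00000037759, chr14:44988195-45003820, plus strand), the EP2 receptor, was sparse, with 127 and 157 UMIs over all barcodes of the libraries and 3 and 9 in the main population. It was highest in neutrophil-like cells, at 18.9 CPM (11.4 to 29.5; 19 UMIs) in the control and 61.3 CPM (38.4 to 92.8; 22 UMIs) in the PKCi library. These intervals overlapped those of the next class, monocyte-like cells in the control (10.3 to 16.6) and T-like cells in the PKCi library (18.3 to 47.5). The neutrophil-like ratio of 3.25 (1.68 to 6.35) was called higher. That call rests on few UMIs. Over the cells of the same clusters with at least 1000 genes the levels were 14.6 and 10.7 CPM (0.736; 0.0171 to 5.06), with too few UMIs for a call, and with all cells clustered and named again under that limit the log2 ratio was -1.93 in place of 1.70. T-like cells had 11.1 CPM from 5 UMIs and 30.4 CPM from 19 UMIs, with a ratio of 2.74 whose interval (0.991 to 9.40) includes 1. Monocyte-like cells had 13.2 and 12.5 CPM, a ratio of 0.944.

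Hpgd (ENSMUSG00000031613, chr8:56294585-56321043, plus strand), the enzyme that inactivates prostaglandins, was the scarcest of the genes, with 29 (control) and 24 (PKCi) UMIs over all barcodes. Fibroblast-like cells had 24.9 CPM from 12 UMIs and 13.03 CPM from 6 UMIs, and monocyte-like cells 2.57 and 2.54 CPM. The main population had 2 UMIs in the control and none in the PKCi library, where a count of 0 allows up to 0.0146 CPM.

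Alox5ap (ENSMUSG00000060063, chr5:149264767-149288153, plus strand), which encodes FLAP, was a myeloid gene in both libraries. In neutrophil-like cells it had 1021 CPM (959 to 1085; 1028 UMIs) in the control and 368 CPM (308 to 436; 132 UMIs) in the PKCi library, with a ratio of 0.360 (0.298 to 0.432) called lower, or 2.78 times lower. Monocyte-like cells had 574 and 466 CPM, a ratio of 0.812 (0.766 to 0.861), and macrophage-like cells 443 and 371 CPM, a ratio of 0.837 (0.786 to 0.891), both lower but within the fold. The main population had 1.82 and 1.33 CPM. Neutrophil-like cells were thus highest for Alox5ap in the control library, and in the PKCi library they lay below monocyte-like cells and overlapped macrophage-like cells.

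Alox5 (ENSMUSG00000025701, chr6:116410077-116461178, minus strand), is the lipoxygenase that FLAP serves. Its control levels were alike within counting error in NK-like cells (40.7 CPM; 20 UMIs), macrophage-like cells (39.4 CPM; 136 UMIs) and neutrophil-like cells (37.7 CPM; 38 UMIs). In the PKCi library neutrophil-like cells had 55.7 CPM (20 UMIs), macrophage-like cells 51.9 CPM (384 UMIs) and NK-like cells 15.5 CPM (9 UMIs). Monocyte-like cells had 8.43 CPM (6.17 to 11.3; 46 UMIs) in the control and 23.4 CPM (18.9 to 28.7; 92 UMIs) in the PKCi library, with a ratio of 2.78 (1.93 to 4.05) called higher. Its log2 ratio of 1.46 was 2.51 with classes from the markers of each cell. The macrophage-like ratio was 1.32 (1.08 to 1.61) and the neutrophil-like ratio 1.48 (0.814 to 2.60), both short of a call.

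Ltc4s (ENSMUSG00000020377, chr11:50236461-50238616, minus strand), the leukotriene C4 synthase, was higher in the PKCi library in both monocyte-like and macrophage-like cells. Monocyte-like cells had 4.40 CPM (2.82 to 6.54; 24 UMIs) and 28.5 CPM (23.5 to 34.3; 112 UMIs), a ratio of 6.48 (4.14 to 10.5). Macrophage-like cells had 32.5 CPM (26.7 to 39.1; 112 UMIs) and 53.0 CPM (47.9 to 58.5; 392 UMIs), a ratio of 1.63 (1.32 to 2.03), and in the 1 class formed at a Leiden resolution of 0.5 the log2 ratio was 1.54 in place of 0.70. Dendritic-like cells had 69.0 and 64.2 CPM from 5 and 13 UMIs, and endothelial-like cells 24.3 and 34.1 CPM. Neutrophil-like cells, which had Alox5ap and Alox5, had no Ltc4s UMI in either library, where a count of 0 allows up to 2.98 CPM in the control and 8.36 CPM in the PKCi library. In the main population Ltc4s was called higher (11 and 37 UMIs; ratio 3.31, 1.65 to 7.19), but at 0.0543 and 0.180 CPM. That is 0.167% and 0.339% of its macrophage-like level, beside 0.106% and 0.286% for the macrophage genes C1qa, C1qb and C1qc summed, which moved the same way; the part of RNA from macrophages was not tested.

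**Figure D3:**
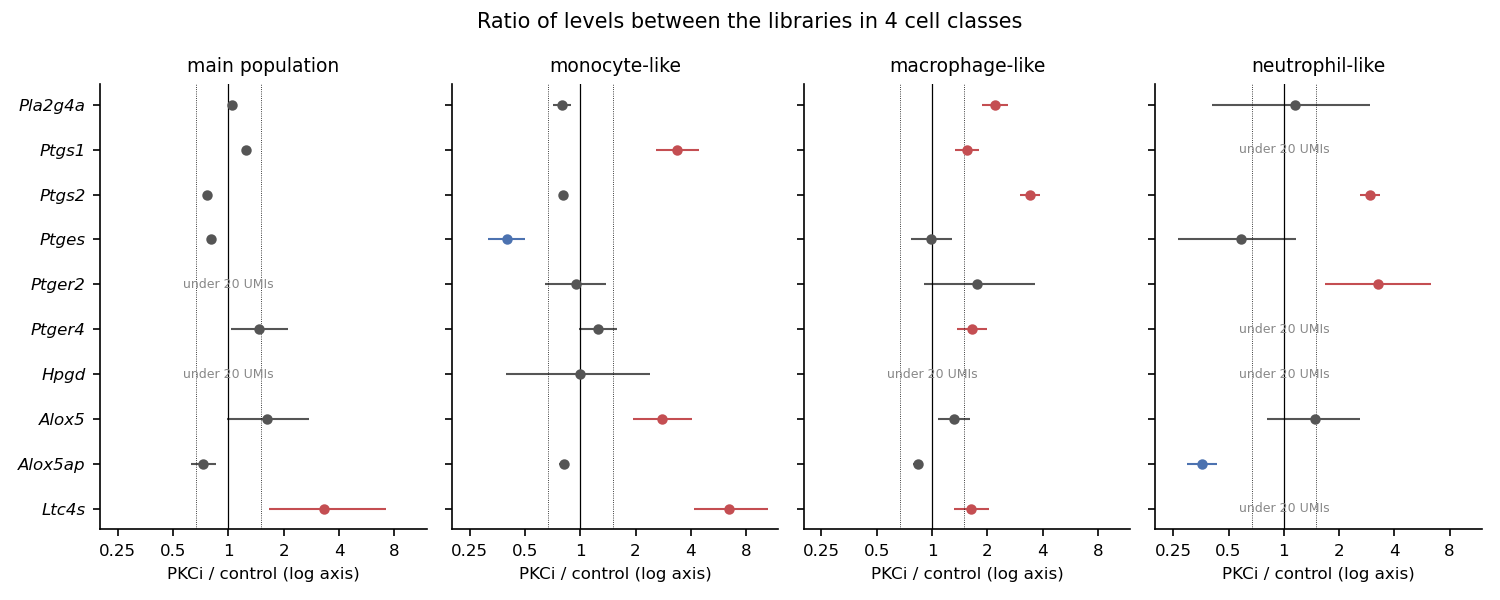
Points give the ratio of each gene's CPM in the PKCi library over the control library on a log axis in the 4 classes compared, with exact 95% counting intervals; dotted lines mark the fold of 1.5 in each direction, and red and blue mark genes called higher and lower. Macrophage-like cells have 5 genes called higher and none lower.

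By class, 5 of the 9 measured genes were called higher in macrophage-like cells and none lower, where 9.75% of all 11502 genes tested were called higher and 5.58% lower. Their median log2 ratio was 0.70, against 0.04 over all genes. In monocyte-like cells 3 of 10 were called higher and 1 lower, with a background of 9.97% and 6.3% of 10673 genes, and the median was -0.04 against 0.13. In neutrophil-like cells 2 of 6 were called higher and 1 lower, with a background of 18% and 7.01% of 4951 genes, and the median was 0.42 against 0.18. In the main population 1 of 8, Ltc4s at the low level above, was called higher and none lower, with a background of 3.75% and 5.11% of 17681 genes, and the median was 0.19 against -0.02. With so few genes these shares describe the genes and set nothing apart. Marker levels moved too: the 7 macrophage markers, all detected, summed to 15901 CPM in control and 11207 CPM in PKCi macrophage-like cells, and the 7 monocyte markers to 2373 and 1808 CPM in monocyte-like cells, where the macrophage list summed to 2813 and 1637 CPM. The 7 neutrophil markers summed to 152228 and 59370 CPM in neutrophil-like cells. The part of these shifts in the ratios above was not tested.

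Monocyte-like and macrophage-like cells were clustered again, without the pathway genes, into 8 finer clusters named here by their leading genes. These were filled unequally: the Slpi, Met and Nos2 cluster had 202 control and 31 PKCi cells, the Car4, Ccl17 and Cxcl14 cluster 55 and 286, and the Lyve1, Bmp2 and Retnla cluster, which carries C1q, 126 and 437. A cluster filled mostly by 1 library may be that library and not a cell type. The Slpi cluster was the largest of the control monocyte-like cells (202 of 576) and the Car4 cluster the largest of the PKCi ones (277 of 483), so the monocyte-like ratios compare classes of different make-up.

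Control Ptgs2 was concentrated in the Slpi cluster, which held 58.4% of the Ptgs2 UMIs of these cells with 26.8% of the cells. Its Ptgs2 level was 2341 CPM in the control and 603 CPM in the PKCi library, with a ratio of 0.258 (0.208 to 0.316). The same cluster had the highest Ptges of the 8 in the control, at 154 CPM and 57.1 CPM in the PKCi library (0.370; 0.167 to 0.714), and the highest Pla2g4a, at 317 and 133 CPM (0.421; 0.258 to 0.650). Pla2g4a, Ptgs2 and Ptges were thus all highest in 1 group of control monocyte-like cells, and all were lower among its 31 PKCi cells. The other cyclooxygenase gene, Ptgs1, was not: this cluster held 2.87% of its control UMIs (9 UMIs) with 26.8% of the cells. In the PKCi library the Car4 cluster held 50.9% of the Ptgs2 UMIs with 27.7% of the cells, at a level of 1097 CPM in the control and 1099 CPM in the PKCi library, with a ratio of 1.00 (0.920 to 1.09).

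The Slpi cluster was chosen for leaving out after the data were seen, and it held 202 control and 29 PKCi monocyte-like cells. Leaving it out also leaves out its high control levels of Ptgs2, Ptges and Pla2g4a and their falls within it. Higher ratios of these genes thus follow from the choice, and the part of the cluster mix in the class ratios was not tested. Without the Slpi cluster, 374 and 454 monocyte-like cells remained and the ratios of Ptgs2 and Pla2g4a turned. Ptgs2 was then 621 and 922 CPM, a ratio of 1.48 (1.41 to 1.57), in place of 0.807. Pla2g4a was 92.0 and 125 CPM, a ratio of 1.36 (1.18 to 1.56), in place of 0.793. Ptges was 26.2 and 24.1 CPM, a ratio of 0.917 (0.683 to 1.23), so its call was lost. The calls of Ptgs1 (ratio 2.77), Alox5 (2.34) and Ltc4s (5.65) were kept, and Ptger2 was then called higher (2.08; 1.22 to 3.64). With a mitochondrial limit of 10% in place of 20%, the log2 ratio of Ptges in monocyte-like cells was -0.22 in place of -1.33, and that of Ptgs2 was 0.32 in place of -0.31. In monocyte-like cells with no UMI of C1qa, C1qb or C1qc (382 and 317 cells), Ptgs1 (2.91), Alox5 (7.84) and Ltc4s (10.2) were still called higher and Ptges (0.367) lower. Pla2g4a (0.561; 0.477 to 0.659) was then called lower as well, and Ptgs2 was 0.688 times the control (0.653 to 0.725).

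In the C1q-carrying Lyve1 cluster, which made up most of the macrophage-like class, Ptgs2 was 92.3 and 307 CPM, a ratio of 3.33 (2.87 to 3.88). Pla2g4a there was 61.7 and 132 CPM (2.14; 1.77 to 2.60) and Ptgs1 60.3 and 110 CPM (1.82; 1.502 to 2.22). The 3 genes that supply prostaglandin H2 were thus each higher in the PKCi cells of this cluster, whereas Ptges was 18.8 and 18.5 CPM (0.982; 0.673 to 1.46). Ltc4s had its highest control level here, at 47.1 CPM, with 60.4 CPM in the PKCi library (1.28; 1.02 to 1.62). In the Car4 cluster it was 8.33 and 35.2 CPM (4.22; 1.75 to 13.3) and in the cycling Prc1 and Mki67 cluster 5.85 and 43.9 CPM (7.51; 2.99 to 24.3). Ptger4 was above the control in each of the 7 clusters where it had 20 UMIs, by 1.10 to 2.77 times. Hpgd was nearly restricted to the Ly6c2-carrying Plac8 cluster in the control, which held 13 of 14 UMIs, against 10 of 18 in the PKCi library.

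**Figure D4:**
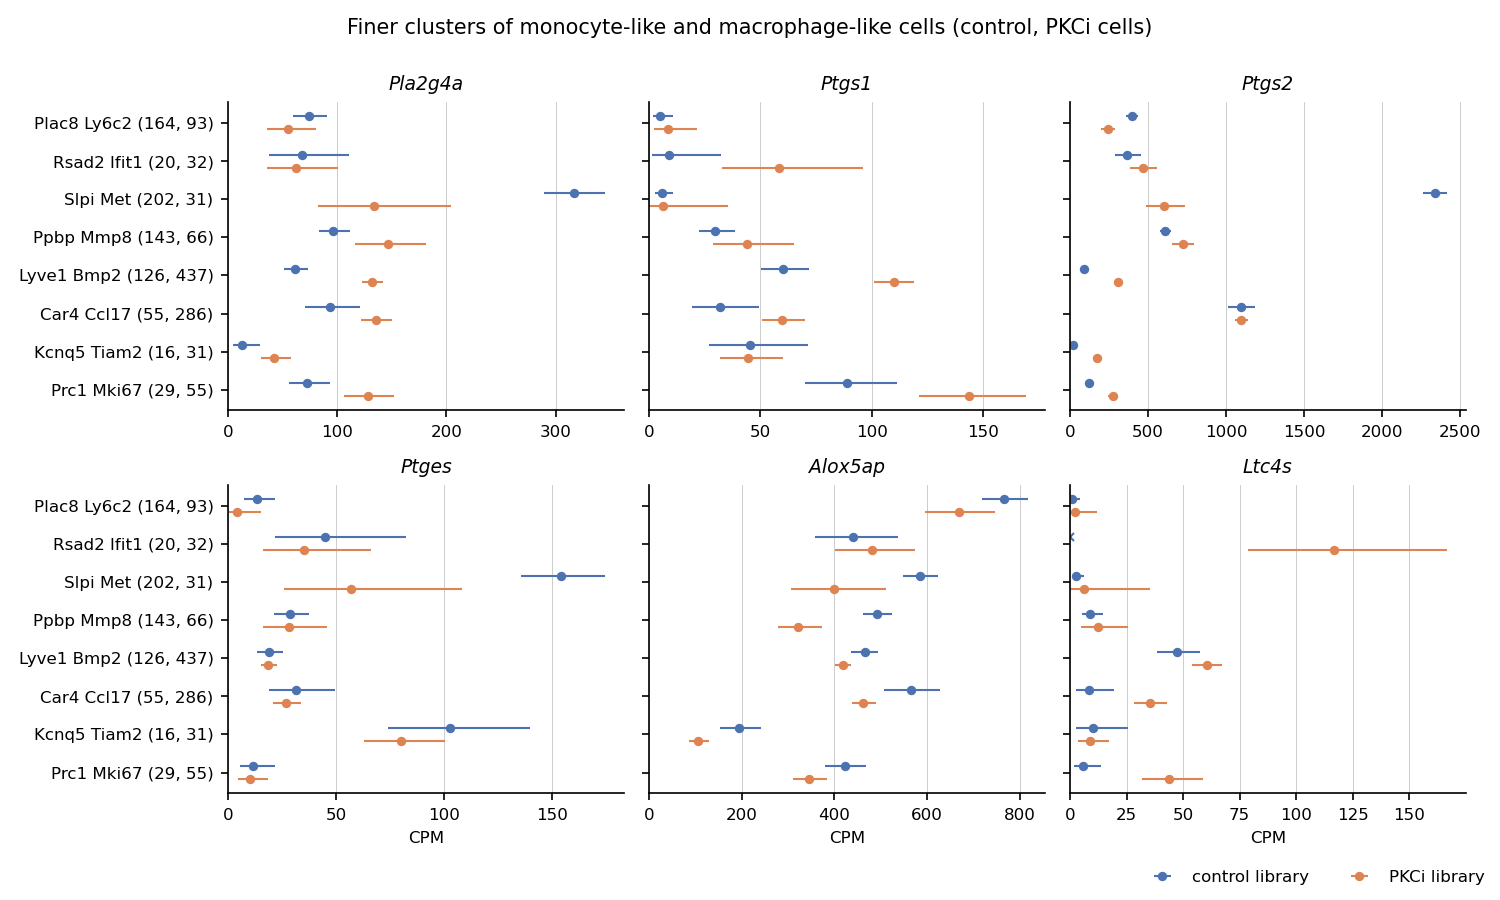
CPM of 6 genes in the 8 finer clusters of monocyte-like and macrophage-like cells, labelled by 2 leading genes and the numbers of control and PKCi cells, with exact Poisson 95% intervals; a cross marks a level of 0. The Slpi cluster stands out in the control library for Ptgs2 (2341 CPM), Ptges (154 CPM) and Pla2g4a (317 CPM).

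Macrophage-like cells with no UMI of Ly6c2, Chil3 or Plac8 (151 and 506) had ratios of 3.02 for Ptgs2, 2.16 for Pla2g4a, 1.80 for Ptger4 and 2.06 for Ltc4s. These 4 calls were therefore as large or nearly so without the cells that carried monocyte genes. Over the whole macrophage-like class the platelet list, carried by 3 of its 5 genes, summed to 10006.3 and 3977 CPM.

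The neutrophil-like class was made of 3 clusters that the libraries filled differently. A cluster led by Retnlg, with Camp and Ly6g, held 100 control and 3 PKCi cells, one led by Bcl2a1d and Fgl2 held 23 and 136, and one led by Cd36 and Gpnmb held 144 and 28. Ptgs2 was 979 and 1555 CPM in the Bcl2a1d cluster (1.59; 1.23 to 2.09) and 493 and 1439 CPM in the Cd36 cluster (2.92; 2.20 to 3.84). In the Retnlg cluster it was 468 and 124 CPM from 225 and 1 UMIs, a ratio of 0.266 whose interval (0.00669 to 1.49) includes 1. Without the Retnlg cluster the class ratios were 2.77 for Ptgs2, 2.20 (1.09 to 4.56) for Ptger2 and 0.593 for Alox5ap, and 2 more genes were called: Alox5 higher (2.73; 1.25 to 6.30) and Ptges lower (0.416; 0.184 to 0.857). With the PKCi clusters weighted by their control numbers of UMIs the Ptgs2 ratio was 1.59 in place of 2.94, that of Ptger2 1.24 in place of 3.25 and that of Alox5ap 0.275 in place of 0.360. These weighted ratios have no interval. For the Retnlg cluster they rest on 3 PKCi cells, with 1 Ptgs2, 0 Ptger2 and 3 Alox5ap UMIs. Alox5ap was lower in the PKCi library in all 3 clusters, at 608 and 399.5 CPM, 1459 and 373 CPM, and 621 and 167 CPM in the Bcl2a1d, Retnlg and Cd36 clusters. The PKCi values came from 121, 3 and 8 UMIs. The intervals of the ratios were 0.457 to 0.960, 0.0525 to 0.749 and 0.115 to 0.536. The median neutrophil-like cell had 3372 UMIs in the control and 2004 in the PKCi library. Within the same clusters, 161 of the 267 control and 28 of the 167 PKCi cells had at least 1000 genes, and over these Ptgs2 was 539 and 1480 CPM (2.75; 2.25 to 3.34) and Alox5ap 1052 and 322 CPM (0.306; 0.205 to 0.440), so both calls were kept. When all cells were clustered and named again under that limit, 182 and 46 cells were named neutrophil-like, Ptgs2 there was 318 and 343 CPM, a log2 ratio of 0.11 in place of 1.55, and the call was lost. Alox5ap was still called lower there, at a log2 ratio of -3.05 in place of -1.47. With a mitochondrial limit of 10% the log2 ratios of Ptgs2, Ptger2 and Alox5ap were 0.97, 0.94 and -2.05.

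The main population had 9 large clusters, and the PGE2 genes were not even across them. The cluster led by Mmp3, Dcn and Adm (400 control and 106 PKCi cells) had the highest Ptgs2 level, at 87.2 and 60.9 CPM, and the highest Ptges, at 286 and 229 CPM. Pla2g4a (36.6 and 30.6 CPM) and Ptgs1 (26.8 and 35.5 CPM) were also high there in both libraries. The cluster led by Ptn and Sema3a (615 and 798 cells) came second for Ptgs2, at 42.7 and 36.0 CPM, and had Pla2g4a at 31.0 and 31.1 CPM but Ptges at only 133.9 and 133.9 CPM. In the cluster led by Agbl3 and Hspa1b (313 and 325 cells) Ptges was 173 and 113 CPM (0.657; 0.618 to 0.697), past the fold, and Pla2g4a was 13.8 and 21.4 CPM (1.55; 1.30 to 1.85). Ptgs2 was lowest in the Ly6a cluster (7.81 and 7.03 CPM) and the Pclaf cluster (8.05 and 8.48 CPM).

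**Figure D5:**
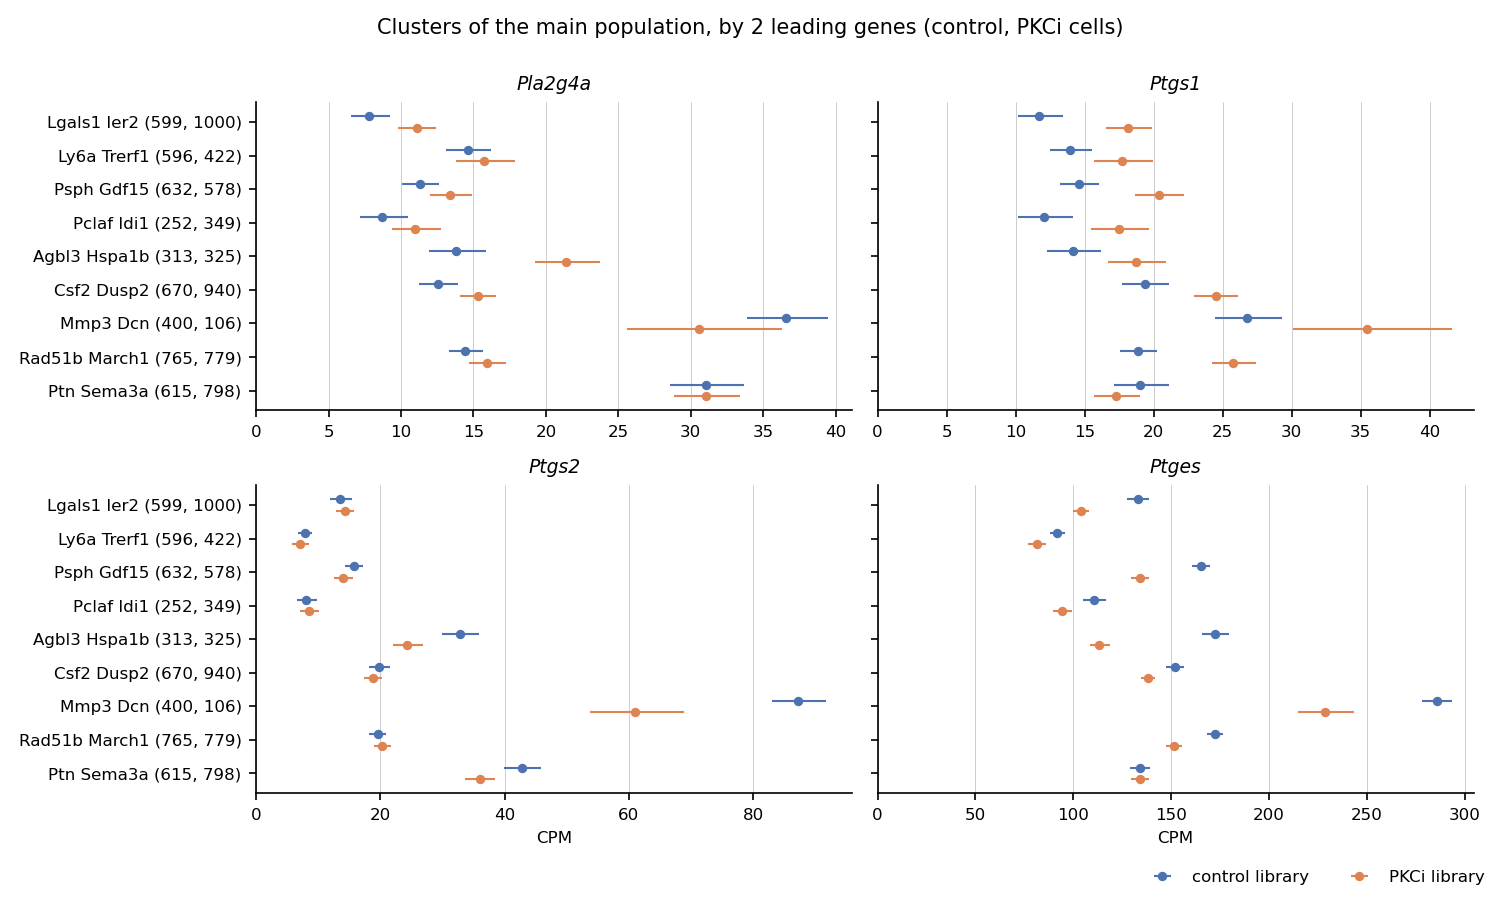
CPM of 4 genes in the 9 large clusters of the main population, labelled by 2 leading genes and the numbers of control and PKCi cells, with exact Poisson 95% intervals. The Mmp3 cluster is highest for Ptgs2 (87.2 and 60.9 CPM) and Ptges (286 and 229 CPM) in both libraries.

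The Ptgs2 ratio of the main population differed with the clusters counted. Within clusters, Ptgs2 was lower in the PKCi library in 6 of the 9 and higher in 3. The interval left out 1 only in the Mmp3, Ptn and Agbl3 clusters, where it was lower. The ratio was 0.699 (0.610 to 0.797) in the Mmp3 cluster itself, so leaving that cluster out also leaves out this fall. The part of the cluster mix in the class ratio was not tested. Without the Mmp3 cluster, Ptgs2 was 19.7 and 18.7 CPM, a ratio of 0.952 (0.909 to 0.996) against 0.764 with it. With the PKCi clusters weighted by their control numbers of UMIs the ratio was 0.850. Ptges was lower in the PKCi library in 8 of the 9 clusters and equal within counting error in the Ptn cluster (1.00; 0.949 to 1.05), and its ratio without the Mmp3 cluster was 0.859. Ptgs1 was higher in 8 of the 9 clusters, with a ratio of 1.30 without the Mmp3 cluster. None of these ratios over the whole main population reached the fold.

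For some pairs of pathway genes, a gene had a UMI in a larger share of the cells with a UMI of its partner than of those without. For others it did not. After thinning to 5000 UMIs, Ptges had a UMI in 58.2% (53.5 to 62.8) of control main population cells with a Ptgs2 UMI and in 46.8% (45.3 to 48.3) of those without, and in 50.3% and 41.2% in the PKCi library. Among control monocyte-like cells, Ptgs2 had a UMI in 76.9% (70.2 to 82.7) of the cells with a Pla2g4a UMI and in 161 of 322 (44.4% to 55.6%) of those without, and in 71.5% and 54.7% in the PKCi library. COX-2 UMIs were thus more frequent in monocyte-like cells that had a phospholipase UMI, in each library. In PKCi macrophage-like cells the shares were 42.0% (33.8 to 50.5) and 25.7% (21.1 to 30.8), and in control ones 21.2% (9.0 to 38.9) and 13.9% (8.3 to 21.4), whose intervals overlap. Ltc4s had a UMI in 23.1% (11.1 to 39.3) of PKCi monocyte-like cells with an Alox5 UMI and in 6.01% (3.66 to 9.23) of those without. In control monocyte-like cells it had a UMI in 0 of 14 cells with an Alox5 UMI and in 9 of 494 without. The macrophage-like shares were 13.6% and 11.3% in the control and 16.8% and 14.1% in the PKCi library, with overlapping intervals.

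Over 7 classes, those with 20 or more cells per library, and both libraries (14 points), the genes with the most similar profiles were found by Pearson's r of log2(CPM + 1) among 6158 genes. The points share libraries and cell numbers, and r is given as a description. Ptgs2 was most like Socs3 (0.966), App (0.955) and Thbs1 (0.947), and Alox5ap most like Spi1 (0.987), Itgam (0.980) and Mmp9 (0.978). The nearest gene was Psd3 for Ptgs1 (0.931), Rbp4 for Ptges (0.935), Rin2 for Pla2g4a (0.949), Dok2 for Ptger4 (0.938), Fcer1g for Alox5 (0.943) and Tmed10 for Ltc4s (0.921). Among the genes themselves, Pla2g4a was most like Ptgs1 (0.859) and Ptgs2 (0.844), Alox5 had an r of 0.651 with its partner Alox5ap, and Ptges ran against Alox5 (-0.67).

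The other 49 genes of the eicosanoid pathway were counted by the same call. In macrophage-like cells 30 were measured, 4 called higher (Mgst2, Alox15, Fpr2 and Cyp4f18) and 4 lower (Pla2g2d, Hpgds, Cbr1 and Ptgr1). Of all genes tested there, 9.75% were called higher and 5.58% lower. In monocyte-like cells 24 were measured, 2 called higher (Tbxas1, Fpr2) and 3 lower (Pla2g7, Hpgds, Ptgr1), against 9.97% and 6.3% of all genes. In neutrophil-like cells 12 were measured, 1 called higher (Ltb4r1) and 3 lower (Pla2g7, Hpgds, Ggt1), against 18% and 7.01%. Of 41 measured in the main population, 1 (Tbxas1) was called higher and 6 lower, against 3.75% and 5.11%. Those lower were Pla2g4c, Ptger3, Ptgfr, Ptgir, Alox12 and Dpep1. With so few genes these counts set nothing apart. The median log2 ratios of these other genes, 0.03, 0.15, -0.05 and -0.07, compare with 0.04, 0.13, 0.18 and -0.02 over all genes, in the same order. Hpgds, the prostaglandin D2 synthase of blood cells, was called lower in all 3 myeloid classes, at 76.3 CPM (control) and 45.8 CPM (PKCi) in macrophage-like cells, 8.43 and 1.27 CPM in the monocyte-like class, and 38.7 and 2.79 CPM in neutrophil-like cells. Tbxas1, the thromboxane synthase that uses the same prostaglandin H2, was 111 and 203 CPM in monocyte-like cells (1.83; 1.65 to 2.04). Pla2g7, which degrades platelet-activating factor, was called lower in monocyte-like cells (327 and 190.3 CPM) and neutrophil-like cells (500.4 and 167 CPM). Ltb4r1, the leukotriene B4 receptor, was called higher in neutrophil-like cells (142 and 231 CPM). Of the cysteinyl leukotriene receptors, Cysltr1 was at 70.8 and 68.2 CPM in macrophage-like cells and Cysltr2 at 70.9 and 88.0 CPM in T-like cells.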

How the data were processed

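Gene-by-barcode UMI counts of both libraries (10x Chromium 3' v3.1) were used as deposited by the authors, raw counts that are not normalized and come from Cell Ranger 7.0.0, per the file headers. The submitters' processing notes also name Seurat and the build GRCm38, with no role. Library totals were 222641855 and 229219749 UMIs.

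Barcodes with under 500 genes (247 control, 200 PKCi) or more than 20% mitochondrial UMIs (a further 61 and 47) were removed, and Scrublet in scanpy 1.11.5 marked 111 and 132 doublets (1.74% and 1.83%), which were removed. Cells were clustered (2000 variable genes without the pathway genes, 30 principal components, 15 neighbours, Leiden resolution 1), and clusters were named from marker lists at a mean score of at least 0.25, a limit lowered after the scores were seen. Among clusters named from these lists the lowest score was 0.288, for the neutrophil-like cluster with Cd36 and Gpnmb. The next was 0.429, for the dendritic-like cluster. Levels are summed UMIs per 1000000 UMIs with exact Poisson intervals, and ratios have exact conditional binomial intervals, with 0.5 counts added for log2 ratios. A count of 0 allows up to 3 counts of the total. Shares of cells were taken after thinning to 5000 UMIs, with exact Clopper-Pearson intervals. Intervals cover counting error only.

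The 10 genes, the marker lists and the list of 60 pathway genes, of which 59 matched 1 entry (Dpep2 matched more than 1 and was left out), were chosen with earlier results of these data known. All 10 genes are named, and for each gene that reaches 50 CPM in some class the like genes are those with the highest r. Other pathway genes are named where called or highest in their step. No test was run, since each treatment has 1 library. Calculations were tested on simulated data. The 14 planned and 8 added alternatives are given in the closing section.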

Additional observations from a re-analysis of the deposited data

Results flagged for a closer look

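Ptgs2 differed between cell classes in the direction of its ratio between the libraries: the PKCi level was 3.41 times the control in macrophage-like and 2.94 times in neutrophil-like cells, and 0.764 times in the main population and 0.807 times in monocyte-like cells. Pla2g4a was 2.20 times the control in macrophage-like and 0.793 times in monocyte-like cells. These values drew attention because the intervals of the ratios lie on opposite sides of 1. The difference between classes was not tested, since each treatment has 1 library. The macrophage-like values changed with where the border between these classes was set, and at the lower Leiden resolution no monocyte-like class formed. The monocyte-like values turned when 1 finer cluster, the one led by Slpi, was left out, as given above. That cluster held 0 control and 2 PKCi macrophage-like cells. The cause of these changes was not tested.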

How the results depend on the processing

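No paired analysis was possible because each treatment had 1 library, and no replicate could be left out. Of 22 alternatives, 8 were chosen after seeing the data: leaving out shared barcodes, cells with monocyte genes, cells with C1q genes, the clusters led by Slpi, Mmp3 and Retnlg, neutrophil-like cells under 1000 genes, and the top fibroblast-like cell of each gene. Values turned in sign in 2 cases among the called ratios: Ptgs2 in macrophage-like cells had a log2 ratio of -0.52 at a Leiden resolution of 0.5, where no monocyte-like class formed, and Ptger2 in neutrophil-like cells had -1.93 with cells clustered again at 1000 genes or more. The number of genes called higher in the main population, 1 as reported, was 3 with classes from the markers of each cell, 2 with doublets kept, 2 with a mitochondrial limit of 10%, 3 with the mean of cells, 2 without the top cell of each gene, 2 without the Mmp3 cluster and 0 with at least 50 UMIs; the added genes were under 1 CPM. In macrophage-like cells it was 2 (Ptgs2 and Pla2g4a) in place of 5 with a fold of 2, and 1 gene, Ptges, was called lower in place of 0 at a Leiden resolution of 0.5 and with the main population's profile subtracted. In monocyte-like cells the 1 gene called lower became 2 with classes from markers and without C1q-carrying cells, and 0 with a mitochondrial limit of 10% and without the Slpi cluster. In neutrophil-like cells the 2 genes called higher (Ptgs2 and Ptger2) became 1 with cells clustered again at 1000 genes or more (Ptgs1, with neither of those), and 1 (Ptgs2) within the same clusters at that limit or with at least 50 UMIs. They became 3 with the mean of cells and without the Retnlg cluster (Alox5 added), with classes from markers (Pla2g4a) and with a mitochondrial limit of 10% (Ptgs1). The 1 called lower there became 2 with cells clustered again at 1000 genes or more (Alox5 added) and with the mean of cells, with the main population's profile subtracted and without the Retnlg cluster (Ptges added). The cause was not tested. Setting the median of all genes to 0 shifted log2 ratios by 0.13 in monocyte-like and 0.18 in neutrophil-like cells and changed no count of calls. In monocyte-like cells Ptgs1 (log2 ratio 1.46 to 2.02), Ltc4s (2.04 to 3.23) and Alox5 were called higher under every alternative that gave a value. Depth limits Ptger2 and Hpgd, and all values in classes with few cells.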

Other observations

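Alox15, which oxygenates arachidonic acid at another carbon than Alox5, had 1 UMI in control and 173 UMIs in PKCi macrophage-like cells (0.290 and 23.4 CPM; ratio 80.7, interval 14.3 to 3204). The PKCi UMIs came from 24 of 548 cells, and the top 5 cells held 74.0% of them. Ggt1, which starts the conversion of leukotriene C4 to D4, had 22 UMIs in control neutrophil-like cells and none in PKCi ones. Ptgis, the prostacyclin synthase, was at 133 and 204 CPM in fibroblast-like cells.

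Some clusters that the marker lists left unnamed carried genes of the pathway. A cluster led by Ccl17, H2-Eb1 and H2-Ab1 (15 control and 32 PKCi cells) had Ptgs2 at 326 and 327 CPM, Alox5ap at 419 and 356 CPM and Ptger4 at 31.0 and 143 CPM. A cluster with Xcr1 and Clec9a (7 and 18 cells) had Ptger4 at 99.3 and 107 CPM and Alox5ap at 497 and 352 CPM. A cluster led by the mast cell proteases Cma1 and Mcpt4 (27 and 22 cells) had Ptgs2 at 74.7 and 161 CPM and Ptges at 127.6 and 127.7 CPM, beside Krt8 at 251 and 415 CPM. With so few cells these are values of single clusters, given without comparison.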
